A study of Caenorhabditis elegans with 4 samples.

Results

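The DPY-30 peaks on chromosome III of Caenorhabditis elegans are described here. They are the 375 entries on III of a peak list that the authors deposited for the series as a whole, called the series-wide list below, which held 2103 peaks in all. Chromatin immunoprecipitation followed by sequencing (ChIP-seq) with a rabbit antibody against DPY-30 was carried out on wild-type N2 worms, the standard laboratory strain. The material was mixed embryos from a mixed population of males and hermaphrodites, grown at 20 °C, and the labels gave 2 ChIP libraries and 2 input libraries. Each ChIP library had a peak list of its own, with 130 peaks on III in replicate 1 and 150 in replicate 2. Peaks of the input libraries were not analysed here, and no background level is given.

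DPY-30 is a small conserved protein that works as a subunit of COMPASS-type complexes, which methylate lysine 4 of histone H3, chiefly at promoters of active genes. In C. elegans the same protein also belongs to the dosage compensation machinery of hermaphrodites, which acts on the X chromosomes. III is an autosome, so its peaks lie on a chromosome that dosage compensation does not target. Autosomes of this species have gene-dense centres flanked by arms that are richer in repeats.

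The 375 peaks covered 152 kb of III, or 1.10% of its length. Their median width was 265 bp (interquartile range 184 to 404.5 bp), with extremes of 146 and 5071 bp. The deposited score, the authors' own value for a peak, had a median of 5.39 on III (interquartile range 3.75 to 8.27) and ran from 1.3 to 60.1. Replicate lists carry scores on another scale, with III medians of 98.0 in replicate 1 and 90.4 in replicate 2, and both began just above 50. What the scores measure, the read depth of the libraries and whether the series-wide list pooled the replicates were not given in the sources used here. Scores were therefore compared only within a list, or between lists by rank, and overlap between the lists is not independent support for a peak. The labels do not tell if the replicates were separate cultures; their differences may be technical, and peaks of 1 list are not replicates of each other.

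The strongest III peaks were recovered in both ChIP libraries. All of the 12 highest-scoring peaks overlapped a peak of each replicate list by at least 1 bp. Of the 12, 9 were at most 1500 bp wide, as were 362 of all 375 III peaks. The 3 others came from the 13 III peaks wider than 1500 bp. Median width was 562 bp for the 25 highest-scoring III peaks, against 265 bp for all. The first of the 12, at 3867310 to 3867711 (WormBase WS220 coordinates, as throughout), was 402 bp wide and had a series-wide score of 60.1. Its replicate scores of 273 and 349 placed it 23rd of 130 III peaks in replicate 1 and 24th of 150 in replicate 2. The peak at 7854389 to 7854813 had a series-wide score of 50.8, with 359 in replicate 1 and 328 in replicate 2. The peak at 10758945 to 10759330 had a series-wide score of 42.3, with 298 in replicate 1 and 271 in replicate 2. These 3 peaks, at ranks 1, 2 and 4 of the series-wide list on III, stood between ranks 16 and 31 in the replicate lists.

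Support was uneven for some of the other narrow peaks of this group. The peak at 3897102 to 3897755, 29.4 kb to the right of the first, scored 49.3 in the series-wide list. It ranked 8th on III in replicate 2, with a score of 1562, and 70th in replicate 1, with 87.8. There the best-scoring replicate 1 peak, at 3897549 to 3897708, covered only the right part of it, whereas the replicate 2 peak ran from 3897055 to 3897745. The peak at 5678923 to 5679258 (series-wide score 27.2) ranked 46th in replicate 1 and 118th in replicate 2. The peak at 1618999 to 1619300 (30.5) stood in the middle of both replicate lists, at rank 64 of 130 and rank 77 of 150. The remaining narrow peaks of the 12 were those at 3770551 to 3770713 (27.18), 10224507 to 10225481 (27.17) and 13292949 to 13293330 (24.2).

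**Figure D1:**
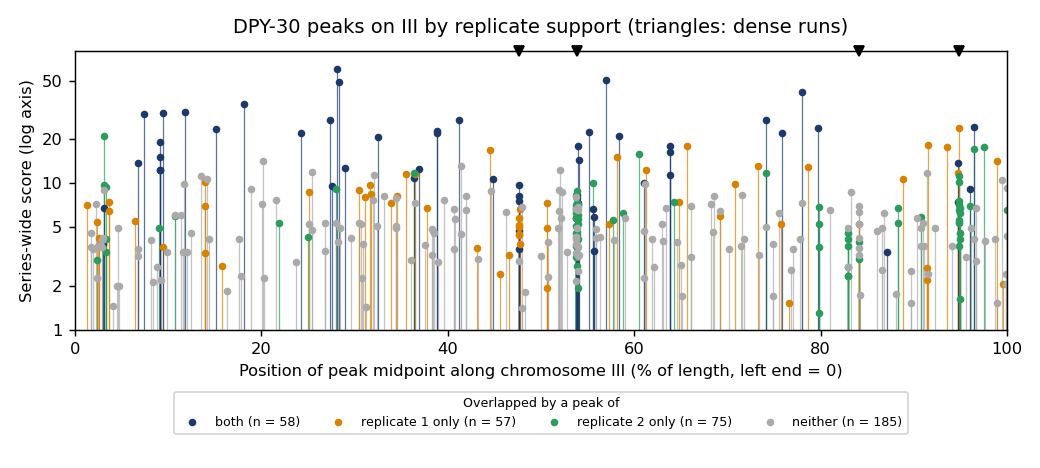
Series-wide score of each of the 375 III peaks (log axis) against the position of its midpoint in percent of the chromosome's length, coloured by which replicate lists held an overlapping peak. Peaks found in both replicates reach 60.1, peaks found in neither reach 14.1, and the triangles mark the 4 dense runs of peaks.

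Peaks wider than 1500 bp, called broad here, scored high on III as a median, but not all of them did. There were 13 of them (3.47% of the III peaks, against 3.33% of all nuclear peaks), from 1554 to 5071 bp wide, and they held 24.0% of the bases covered on III. Their median series-wide score was 22.2, against 5.29 for the 362 narrower peaks. The lowest of them, at 13074757 to 13076829, 13080418 to 13082163 and 6570408 to 6571970, scored 5.47, 7.53 and 8.22. These scores lay between the III median of 5.39 and the III upper quartile of 8.27. Of the 13 broad peaks, 3 others entered the 12 highest-scoring. The one at 2497062 to 2501803 was 4742 bp wide and scored 34.9. It was followed by that at 1299657 to 1303045, 3389 bp wide with a score of 30.2, and that at 1017298 to 1020636, 3339 bp wide with 29.8.

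In the replicate lists broad peaks came first. The leading III peaks of replicate 1 were those at 1299660 to 1303143, 2496964 to 2501790 and 3334306 to 3337067, with scores of 3100, 2217 and 1234. In replicate 2, 5 III peaks shared the score of exactly 3100, and the widest 3 of these lay at 5353051 to 5358496, 2077586 to 2082637 and 2496965 to 2501942. Since the score of 3100 recurs, the order of the leading replicate 2 peaks is not resolved. Peaks over 1500 bp made up 9 of the first 15 III ranks in replicate 1 and 10 of the first 15 in replicate 2. All 11 broad III peaks of replicate 1 overlapped a replicate 2 peak, and 10 of the 13 of replicate 2 overlapped a replicate 1 peak.

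Some broad III peaks were found in 1 replicate, and their outlines differed between lists. Of the 13, 10 overlapped a peak of both replicates. The other 3, at 10226090 to 10227643, 13074757 to 13076829 and 13080418 to 13082163, overlapped replicate 2 peaks (best scores 646, 523 and 681) and no replicate 1 peak. The neighbouring series-wide peaks at 5353226 to 5356541 and 5356637 to 5358412 were joined in each replicate, as 1 peak from 5353045 to 5358568 in replicate 1 (score 608) and 1 from 5353051 to 5358496 in replicate 2 (score 3100). The widest series-wide peak, at 2077564 to 2082634, was met by 3 peaks in replicate 1, the best scoring 569, and by 1 in replicate 2. The broad peak at 3334265 to 3336946 ranked 3rd on III in replicate 1 (score 1234) and 10th in replicate 2 (score 1031). That at 7594617 to 7597221 ranked 5th in replicate 1 (score 650) and 6th in replicate 2 (score 1834).

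**Figure D2:**
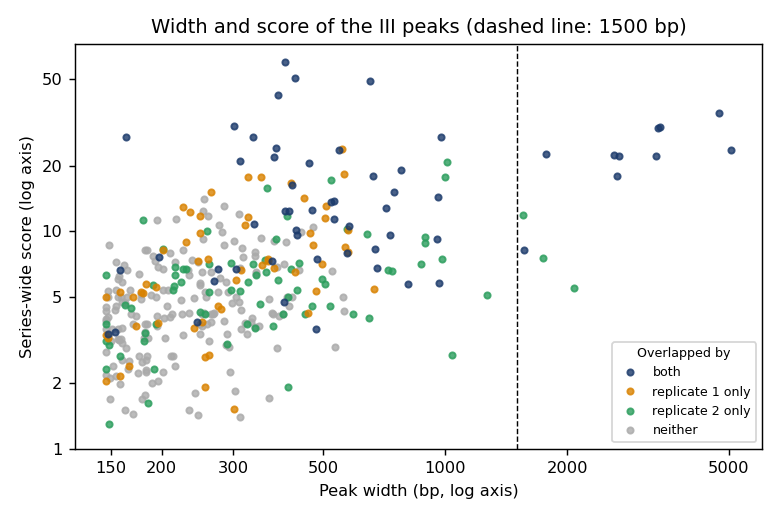
Width (log axis) and series-wide score (log axis) of the 375 III peaks, coloured by replicate support, with a dashed line at 1500 bp. The 4 highest scores belong to peaks narrower than 1000 bp, and 10 of the 13 peaks right of the line were found in both replicates.

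Peaks narrower than 300 bp were the most numerous and were seldom found in both replicates. Those under 200 bp numbered 114 (30.4%), with a median score of 3.75, and 5 of them (4.39%) overlapped a peak of both replicates. Those of 200 to 299 bp numbered 98 (26.1%), and 3 of them (3.06%) did so. Of the 45 peaks 500 to 999 bp wide, 19 (42.2%) did so, and of the 3 peaks of 1000 to 1500 bp, 0 did. Shares by width are not given for the other chromosomes, so these do not set III apart from them. A narrow peak also meets an overlap of 1 bp less easily. Across the 375 peaks, score and width had a Spearman correlation of 0.54, given as a description since both come from the same calls. Among the 58 peaks found in both replicates it was 0.32. In those 58 the correlation of width with the replicate score was higher, 0.55 for replicate 1 and 0.59 for replicate 2.

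A replicate 1 peak overlapped 115 of the 375 III peaks (30.7%, exact 95% interval 26.0 to 35.6%), and a replicate 2 peak overlapped 133 (35.5%, 30.6 to 40.5%). The shares over all 2101 nuclear peaks were 35.8% and 33.2%. Both replicates overlapped 58 III peaks (15.5%, 11.96 to 19.5%), against 18.1% of all nuclear peaks. Replicate 1 alone overlapped 57 (15.2%), replicate 2 alone 75 (20%) and neither 185 (49.3%). On the other 4 autosomes these shares were 17.8%, 15.7% and 49.3% of 1311 peaks. The 58 III peaks of both replicates were the strongest and widest class, with medians of 13.2 in score and 503 bp in width, while the 185 of neither had 4.23 and 216 bp. Medians for the III peaks of 1 replicate lay between these, with a score of 6.8 for replicate 1 alone and 5.65 for replicate 2 alone. The other autosomes had medians of 15.8 and 621.5 bp for both, and 4.31 and 201 bp for neither. A wider peak meets an overlap of 1 bp more easily. At 50% reciprocal overlap, 34 III peaks (9.07%) were found in both replicates, against 10.7% on the other autosomes. Intervals cover counting error only.

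Peaks of lower score rank were supported less often. Among the 25 highest-scoring III peaks, 22 (88%) were found in both replicates and 0 in neither. Ranks 26 to 50 had 11 peaks in both and 3 in neither, and ranks 51 to 100 had 9 in both and 20 in neither. Over ranks 301 to 375, 1 peak was found in both and 54 (72%) in neither. Shares by rank are not given for the other chromosomes, so these do not set III apart from them. Among peaks scoring above the median of all nuclear peaks, 52 of 174 on III (29.9%) were found in both. On the other autosomes it was 206 of 639 (32.2%). The best-scoring peaks that neither replicate held lay at 2785873 to 2786126, 5706210 to 5706494, 7179690 to 7179942, 3505215 to 3505524 and 12598357 to 12598616. They were 253 to 310 bp wide and scored 14.1, 13.0, 12.4, 12.0 and 11.8, which put them at ranks 39 to 53 on III.

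**Figure D3:**
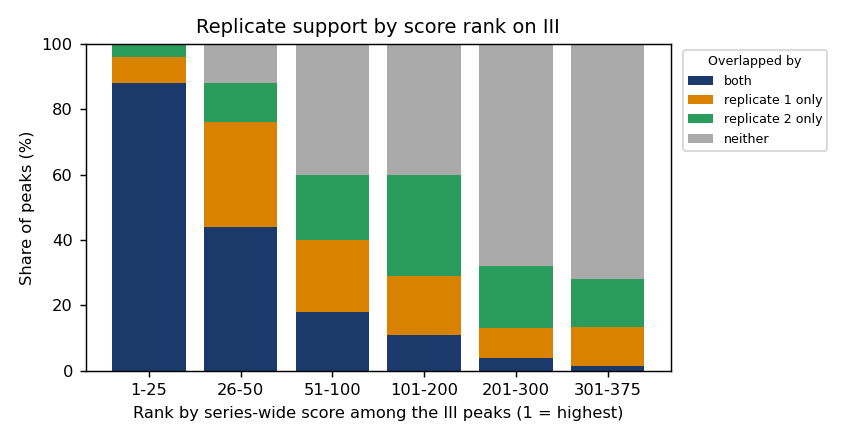
Share of III peaks (percent) overlapped by both replicates, by 1 of them or by neither, in bins of rank by series-wide score. The share found in both is 88% in ranks 1 to 25 and 1.33% in ranks 301 to 375.

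Where both replicates called a peak, its midpoints mostly lay close together, while its scores agreed only loosely. Over the 58 shared peaks, the midpoints of the best-scoring peak of each replicate lay a median of 70.2 bp apart (interquartile range 28.8 to 163 bp, largest distance 2676 bp). These 58 were chosen because a peak of each replicate overlapped the same series-wide peak. That choice itself limits the distance, which is therefore no test of agreement in position. The replicate scores had a Spearman correlation of 0.43 across these 58 peaks, which are not independent where 1 replicate peak spans several of them. By bases, the replicate lists covered 86.1 and 94.0 kb of III and shared 51.9 kb, which is 60.3% of replicate 1 and 55.2% of replicate 2. By peaks, 64 of 130 in replicate 1 (49.2%) met a peak of replicate 2, and 58 of 150 in replicate 2 (38.7%) met one of replicate 1.

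A few replicate peaks on III had no counterpart in the series-wide list. In replicate 1 these were 15 of 130 (11.5%), scoring at most 98.95. In replicate 2 they were 19 of 150 (12.7%), with a median score of 63.4. Of those in replicate 1, 3 overlapped a replicate 2 peak, and of those in replicate 2, 2 overlapped a replicate 1 peak. The strongest replicate peak without a series-wide counterpart lay at the left tip, at 1 to 221 in replicate 2 (score 219). It overlapped a replicate 1 peak at 1 to 210 (score 64.4). The series-wide list began on III only at 179026, with a peak to 179523 that scored 7.07. At the right end its last peak, at 13783381 to 13783731, scored 9.31, and no replicate list reached that far: the last peaks ended at 13721168 in replicate 1 and 13781366 in replicate 2.

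Along the chromosome the peaks were unevenly spaced. Neighbouring series-wide peaks were a median of 11.2 kb apart (interquartile range 0.50 to 54.6 kb). Gaps of at most 1 kb made up 30.2% of the 374 gaps, while 35 gaps exceeded 100 kb. The longest, from 9114955 to 9406646, spanned 292 kb and held no peak of either replicate. The next in length ran from 11160550 to 11430006 (269 kb) and from 11605876 to 11869902 (264 kb).

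Per 1 Mb window, III held 11 to 69 series-wide peaks, with a median of 24. The fullest window was that from 7 to 8 Mb, with 69 peaks in the series-wide list, 19 in replicate 1 and 41 in replicate 2. It was followed by the last, partial window, with 39, 9 and 27. The window from 2 to 3 Mb was the sparsest of the series-wide list, with 11 peaks, and held 7 and 2 in replicates 1 and 2. Outside the dense runs described below, windows held 11 to 32 series-wide peaks.

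The replicates did not follow each other in all windows. From 11 to 12 Mb, replicate 1 had 1 peak and replicate 2 had 12, whereas from 4 to 5 Mb replicate 1 had 9 and replicate 2 had 1. Replicate 2 had no peak at all between 8898067 and 10224445, a stretch of 1326 kb in which the series-wide list had 20 peaks, scoring up to 17.9, and replicate 1 had 6, scoring up to 235. The longest empty stretch of replicate 1, from 2501790 to 3334306 (833 kb), held 7 series-wide peaks and 1 replicate 2 peak. These differences in count were not tested, since neighbouring peaks are not independent.

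**Figure D4:**
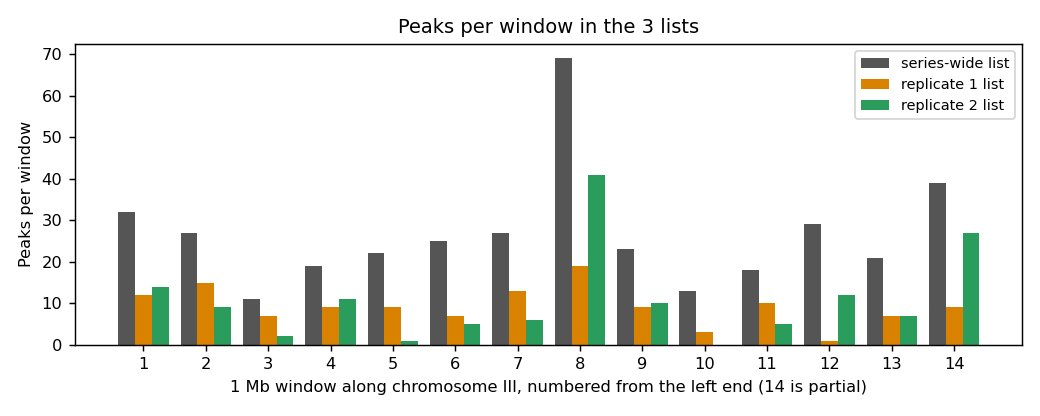
Number of peaks in each 1 Mb window of III, numbered from the left end, in the series-wide list and the 2 replicate lists (bars). Window 8 holds 69, 19 and 41 peaks, and window 12 holds 29, 1 and 12.

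III was divided into 3 equal parts by length. The central part, from 4594577 to 9189154, held 154 of the 375 peaks (41.1%, exact interval 36.0 to 46.2%), more than its share of length (two-sided exact binomial test, p = 0.00177). Neighbouring peaks of a dense run count separately in that test, although they are not independent, and its p describes this list only. The left part held 104 and the right 117. Without the widest dense run the excess was absent, with a central share of 32.2% (exact binomial p = 0.681), and without all 4 runs the share was 32.1% (exact binomial p = 0.662). Peaks found in both replicates were 18.3% of those on the left, 19.5% of those in the centre and 7.69% of those on the right (9 of 117). The share was 15.5% over all III peaks and 18.1% over all nuclear peaks. Outside the dense runs the 3 shares were 18.3%, 17.4% and 8.79%. They were not tested, and the same split is not given for another chromosome. The right part also held no broad replicate 1 peak and 3 broad replicate 2 peaks.

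Dense runs, stretches of at least 10 series-wide peaks with gaps of at most 5000 bp, held a larger share of the peaks on III than on the other autosomes in this list. III had 4 runs with 88 of its 375 peaks (23.5%, exact interval 19.3 to 28.1%), and the other 4 autosomes together had 5 runs with 85 of 1311 peaks (6.48%, 5.21 to 7.95%). Of those 5, 2 lay on I, with 32 peaks. The share over all nuclear peaks was 9.23%. The difference passed Fisher's exact test (two-sided, p = 1.91e-18, Benjamini-Hochberg adjusted p = 1.15e-17 over 6 comparisons of III with the other autosomes). That test counts neighbours in a run as independent, which they are not, so the p describes the peaks of this list only. The definition of a run also came from an earlier look at these data, so the test is no independent support for it. The numbers of runs themselves, 4 and 5, were not tested. Under the same definition the replicate 2 list had 47 of 150 peaks in runs on III and 59 of 519 on the other autosomes (Fisher's exact p = 3.91e-08), while the replicate 1 list had 0 of 130 and 0 of 546 and so allowed no comparison. Without the widest III run the series-wide shares were 12.0% and 6.48% (Fisher's exact p = 0.00147).

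The 4 runs took up 85.6 kb, or 0.621% of III, and 27.2% of all bases covered there. Their peaks had a median score of 5.35 against 5.39 for the 287 III peaks outside them, and a median width of 342 bp against 253 bp. High scores were fewer in the runs, which held 23.5% of the III peaks. Of the 25 highest-scoring III peaks 1 lay in a run, and of ranks 26 to 50 it was 3. Peaks found in both replicates had a median score of 7.61 in the runs and 19.1 outside them. Inside the runs a replicate 2 peak overlapped 55 of the 88 peaks (62.5%) and a replicate 1 peak 24 (27.3%). Outside them the order was the other way round, with 78 of 287 (27.2%) for replicate 2 and 91 (31.7%) for replicate 1. The 1226 peaks outside runs on the other autosomes had that same order, with 29.9% for replicate 2 and 36.2% for replicate 1. Adding the 85 peaks in runs there raised the number overlapped by replicate 2 from 366 to 432. For replicate 1 it rose from 444 to 459. Runs on the other autosomes thus leaned to replicate 2 as well, so this does not set the III runs apart. The 4 III runs held 57 of the 150 replicate 2 peaks on III (38%) and 16 of the 130 replicate 1 peaks (12.3%). These shares are a description, because the runs were defined from the positions of the peaks.

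The widest run, B in the plot of the runs, lay at 7405392 to 7451785. Its 49 peaks were 146 to 2658 bp wide with a median score of 5.7. Replicate 1 had 9 peaks there covering 14.4% of the span, and replicate 2 had 33 covering 36.9%. Of the 49 series-wide peaks, 9 were found in both replicates, 24 in replicate 2 alone and 16 in neither. Its strongest peak, at 7444370 to 7447027, scored 18.1 in the series-wide list, 609 in replicate 1 and 1678 in replicate 2. That peak and its neighbour at 7447120 to 7448081 (14.4) were called by both replicates and lay near the right end of the run. Every other peak of the run scored at most 8.88.

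Run A, at 6567052 to 6576320, was the one where replicate 1 covered more. There 4 replicate 1 peaks covered 78.0% of the span, and 5 replicate 2 peaks covered 29.5%. A single replicate 1 peak, from 6568911 to 6573666 (4756 bp, score 820), overlapped 7 of the 13 series-wide peaks, at least in part. Of the 13, 12 overlapped a replicate 1 peak and 5 a replicate 2 peak. The highest series-wide score in the run was 9.67, at 6568193 to 6568924 (rank 76 on III).

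Run D, at 13068098 to 13086497 near the right end, showed the opposite. Replicate 2 had 17 peaks covering 42.8% of it, and replicate 1 had 2 peaks covering 6.55%. Of the 16 series-wide peaks, 14 were found in replicate 2 alone, 1 in both and 1 in replicate 1 alone. The peak of replicate 1 alone, at 13070243 to 13070797, was the strongest of the run (23.9, rank 13 on III) and scored 386 in replicate 1. Run C, at 11594310 to 11605876, had little in either replicate: 1 replicate 1 peak, 2 replicate 2 peaks and 7 of its 10 series-wide peaks in neither. The best of its peaks, at 11595824 to 11596223, scored 7.05 and was itself found in neither.

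**Figure D5:**
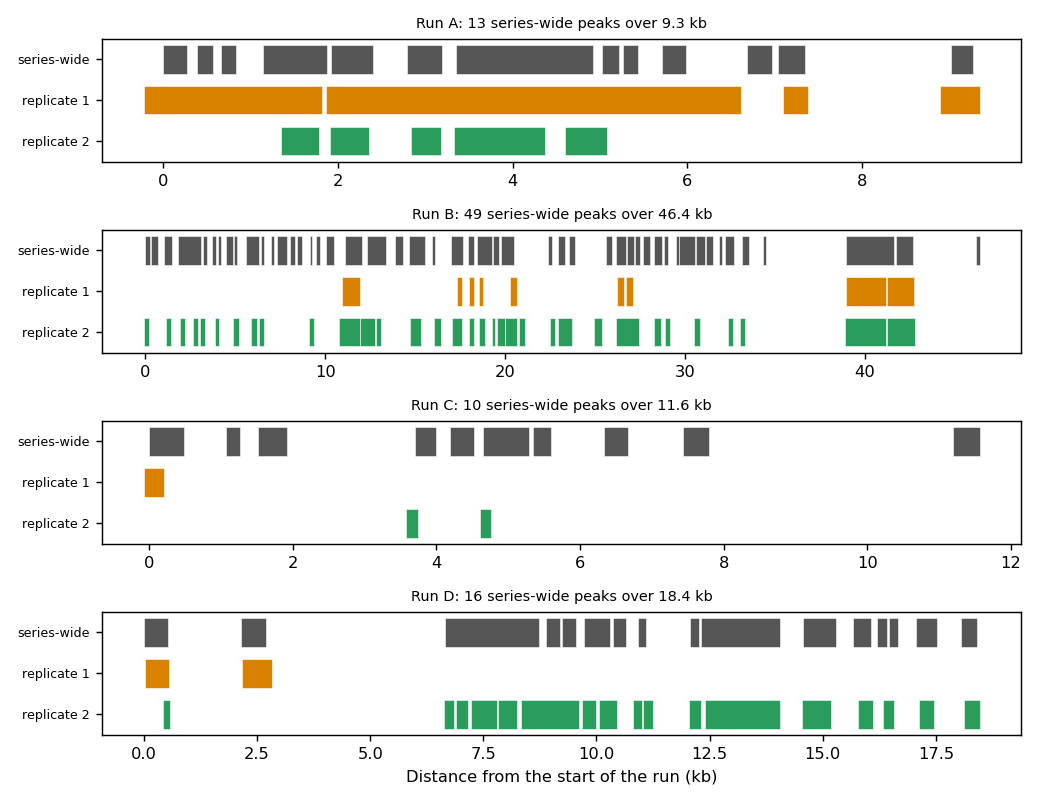
The 4 dense runs of III, A to D from left to right along the chromosome, drawn to scale from the start of each run (kb), with the peaks of the 3 lists as blocks. Replicate 1 covers most of run A (78.0%), replicate 2 covers more of runs B and D (36.9% and 42.8%), and run C has 3 replicate peaks in all.

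On the other measures no difference between III and the other 4 autosomes was detected. Replicate 1 overlapped 30.7% of III peaks and 35.0% of the 1311 other autosomal peaks (Fisher's exact p = 0.123, adjusted p = 0.368), a difference of -4.34 percentage points. For replicate 2 the shares were 35.5% and 33.0% (Fisher's exact adjusted p = 0.536). This small excess turned round without the dense runs, to 27.2% on III and 29.9% elsewhere (Fisher's exact p = 0.388). For both replicates the shares were 15.5% and 17.2% (Fisher's exact adjusted p = 0.536). Scores above the median of all nuclear peaks were found for 174 III peaks (46.4%) and 639 other autosomal peaks (48.7%, Fisher's exact adjusted p = 0.536), and by definition for 50% of all. Broad peaks made up 3.47% of III and 3.51% of the other autosomes (Fisher's exact adjusted p = 1). In the replicate 2 list alone, 38% of III peaks and 50.7% of the other autosomal peaks scored above that list's median (Fisher's exact p = 0.00706, unadjusted), while replicate 1 gave 49.2% and 46.2% (p = 0.558 by the same exact test).

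III carried 27.2 series-wide peaks per Mb, and the other autosomes together carried 19.1, from 15.4 on V to 21.4 on I. X carried 23.5. Relative to protein-coding genes, counted in the RefSeq table of the WBcel235 assembly, there were 142 peaks per 1000 genes on III (2642 genes) and 89.8 on the other autosomes (14599 genes). These counts per gene include the peaks in dense runs. Outside the dense runs the density was 21.0 per Mb on III and 17.9 on the other autosomes together, and it is not given for single chromosomes. These densities are given without a test. Genes at the peaks were not named and no peak sequence is shown, because no annotation or genome of that build (WS220) was used.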

How the data were processed

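Each deposited file gives intervals in coordinates of WormBase WS220 (per the file headers), each with a score set by the authors. The source column of the files names MACS for the 2 ChIP libraries and MACS v2 for the series-wide list. BWA and ce10 are named in the submitters' processing notes. The control, the threshold and the depth were not given in the sources used here.

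Computation used Python 3.11.15, numpy 2.4.6, pandas 2.3.3, scipy 1.17.1 and matplotlib 3.10.9. All 375 peaks on III entered, with no filter. The 2 mitochondrial peaks were left out. Chromosome length was approximated by the largest peak end found in any list. Support was an overlap of at least 1 bp, and where several replicate peaks overlapped, the best-scoring gave the score. Shares on III and on the other 4 autosomes were compared with two-sided Fisher's exact tests, Benjamini-Hochberg adjusted over 6, at a threshold of 0.05. Intervals are exact (Clopper-Pearson, 95%). Scripts were tested on simulated lists.

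Named peaks were the 12 highest-scoring, all broad ones, the 5 best found in neither replicate, the runs with their best peak, and the 3 best of each replicate list, ties broken by width. Peaks outside this rule, at the chromosome ends or beside a named peak, were chosen after their values were seen. The members, the widths and the definition of a run were chosen with earlier results of these data known.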

Additional observations from a re-analysis of the deposited data

How the results depend on the processing

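Values are differences in share between III and the other 4 autosomes, in percentage points, or, for the central of 3 equal parts of III, its excess over the share of length. Of 49 alternatives, 32 kept the direction and the side of the threshold, 12 reversed the direction, 3 lost the call and 2 gained one, and p-values here are unadjusted. No difference that passed its test reversed except the central excess of 7.73, which was -1.28 without the dense runs (exact binomial p = 0.662) and -1.12 without the widest III run, the last chosen after seeing the data. With a centre of 50% it was 3.87 (exact binomial p = 0.148). The excess of peaks in dense runs (16.98) stayed at 5.48 to 17.3 under other gaps, run sizes and sets of peaks. Counting the peaks of 1 replicate instead of the series-wide ones, with another caller and score, gave 0 (replicate 1) to 19.97 for dense runs, 7.44 (replicate 1, exact binomial p = 0.0772) to 8 for the centre, -12.7 to 3.08 for scores above the median and -1.16 to 1.68 for broad peaks. Replicate 2 support (2.51) was -1.78 at 50% reciprocal overlap, -0.60 in the better-scoring 50%, -2.68 without dense runs, -1.23 with peaks within 1000 bp merged and -2.28 without the widest run. Support in both replicates (-1.77) became 2.51 with replicate 2 alone and -4.34 with replicate 1 alone. With X added to the other autosomes, replicate 1 support (-4.34) passed the threshold at -6.24 (Fisher's exact p = 0.0239), and broad peaks (-0.042) were at 0.16, as at 0.17 without the widest run. Apart from those whose construction removes peaks, the cause of these shifts was not tested. No paired analysis was possible because the files used here hold no values for the input libraries, so no comparison set ChIP against input libraries. With 2 libraries and no depths, peaks near the lower limit of a list could not be told from peaks just under it in another.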
